A study of Mus musculus with 21 samples.

Results

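The genes described here are 10 mouse liver genes of fat handling, chosen by symbol: the patatin-like phospholipase genes Pnpla2, Pnpla3, Pnpla6, Pnpla7 and Pnpla8, and 5 further orthologues of human fatty-liver risk genes, Tm6sf2, Hsd17b13, Gckr, Ppp1r3b and Lyplal1. Pnpla3 belongs to both kinds. They are 10 of the 55418 genes in the count tables, and all 10 were among the 15677 genes left by a filter on low counts. RNA of whole, PBS-perfused mouse liver was sequenced from 21 mice in 4 groups, to find genes deregulated where Mboat7 is missing. Mice with Mboat7 deleted in hepatocytes (called KO here) and wild-type mice (WT) were either fed chow and taken at 10 weeks of age (7 KO, 6 WT), or put at 6 to 8 weeks of age on a high-fat, methionine-low, choline-deficient diet (HFMCD) for 6 weeks (4 KO, 4 WT). The labels used here name neither the driver of the deletion nor the strain or sex. Each diet also went with its own age and its own range of animal numbers in the sample titles, so diet, age and cohort cannot be told apart.

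Patatin-like phospholipases are serine hydrolases that cut acyl chains from glycerolipids. Pnpla2, or ATGL, takes the first acyl chain from triglyceride in lipid droplets, is activated by Abhd5 and is inhibited by G0s2. Pnpla6 and Pnpla7 act on lysophospholipids, and Pnpla8 on phospholipids of mitochondria and peroxisomes. Variants at PNPLA3, TM6SF2, HSD17B13, GCKR, PPP1R3B and LYPLAL1 are linked in humans to liver fat. MBOAT7, a gene linked to it in the same way, encodes the enzyme that adds arachidonate to lysophosphatidylinositol. Hepatocytes store triglyceride in droplets and export it as very-low-density lipoprotein (VLDL), and a choline-poor diet limits the phosphatidylcholine that export needs.

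On GRCm38 with the GENCODE annotation, all 10 are protein-coding genes. Pnpla2 lies at chr7:141455198-141460743, Pnpla3 at chr15:84167837-84187236, Pnpla6 at chr8:3515384-3544267, Pnpla7 at chr2:24976033-25054057, and Pnpla8 at chr12:44221370-44322532, all on the plus strand. Tm6sf2 at chr8:70072924-70080066, Gckr at chr5:31297443-31327314 and Ppp1r3b at chr8:35375739-35388139 also lie on the plus strand, whereas Hsd17b13 at chr5:103955440-103977410 and Lyplal1 at chr1:186087731-186117310 lie on the minus strand. Exons of Pnpla3 overlap the same-strand gene model Gm49513, and exons of Pnpla8 share 91 bases with Gm47096 on the other strand, so some reads at these bases could count for either gene.

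The 250 bases before the annotated start are shown for 3 members on which the results turn: Pnpla7, which was lower in KO livers on chow, Pnpla6, which was lower on HFMCD, and Lyplal1, which was higher on HFMCD. Of 3 RefSeq starts of Pnpla6, the one shown lies furthest upstream. The RefSeq table used held 8 of the 10 members, Tm6sf2 and Ppp1r3b excepted. The sequences are from RefSeq on GRCm38.p6, read 5′ to 3′ on the strand of the gene, and capitals mark the motifs found.
Pnpla7 (chr2:24975783-24976032, plus strand): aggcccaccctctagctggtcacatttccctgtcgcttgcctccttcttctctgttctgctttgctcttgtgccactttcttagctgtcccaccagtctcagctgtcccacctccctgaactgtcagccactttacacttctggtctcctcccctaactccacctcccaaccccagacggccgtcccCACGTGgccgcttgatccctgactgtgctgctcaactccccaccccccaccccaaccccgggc
Pnpla6 (chr8:3515161-3515410, plus strand): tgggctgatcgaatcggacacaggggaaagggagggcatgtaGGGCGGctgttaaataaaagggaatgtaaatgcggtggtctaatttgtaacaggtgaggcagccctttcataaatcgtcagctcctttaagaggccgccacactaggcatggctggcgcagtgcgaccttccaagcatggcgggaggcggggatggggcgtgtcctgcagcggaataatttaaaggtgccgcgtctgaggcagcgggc
Lyplal1 (chr1:186117311-186117560, minus strand): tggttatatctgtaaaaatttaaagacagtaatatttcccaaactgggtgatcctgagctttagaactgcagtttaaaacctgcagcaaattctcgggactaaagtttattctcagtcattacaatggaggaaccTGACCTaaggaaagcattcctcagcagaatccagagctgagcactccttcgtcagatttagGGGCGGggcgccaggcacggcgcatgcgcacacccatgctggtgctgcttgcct

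Of 6 motifs looked for on both strands (TATAAA or TATA box, CCAAT box, GGGCGG or GC box, CACGTG or E-box, AGGTCA or nuclear receptor core motif, and TCACNCCAC or sterol regulatory element), the Pnpla7 window held the E-box 63 to 58 bases before the start. CACGTG stood in 6.02% of 32851 promoters of the same length. The Pnpla6 window shown held GGGCGG 208 to 203 bases before its start; of its other starts, the next held a CCAAT box and the last none of the 6 motifs. GGGCGG was also found in the Lyplal1 window, 54 to 49 bases before the start, and in 32.7% of promoters. The Lyplal1 window also held AGGTCA on the other strand, where it reads TGACCT, 115 to 110 bases before the start, a motif of 14.0% of promoters. The base composition differed among the windows, with 60.4% G and C before Pnpla7, 56.4% before Pnpla6 and 47.2% before Lyplal1, beside a median of 52.4% over all promoters. A match gives letters in a window and says nothing of binding there.

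The labels were checked on Mboat7 itself. Levels are given in CPM, counts divided by the library's scaled total of tested genes in the usual unit of that name, as mean ± SD. Mboat7 stood at 36.2 ± 2.72 CPM in WT (n = 6) and 21.3 ± 1.77 CPM in KO (n = 7) on chow, and at 36.3 ± 1.47 and 18.9 ± 2.24 CPM on HFMCD (n = 4 each), with no overlap between genotypes on either diet. The remaining counts were 0.589 and 0.521 of the WT level; whole liver also holds cells other than hepatocytes, and their share of the remaining Mboat7 counts was not measured. Total counts ran from 17502231 to 25822972 per library, and no pair of the 48 within-group pairs of libraries held identical counts. Nothing in the labels marks batches. The p-values set differences between groups against the spread between mice, estimated for each gene over all 4 groups together. Libraries KO chow 1, KO chow 7 and WT chow 3 stood apart by Adipoq, an adipocyte gene, at 4.21, 1.09 and 3.97 CPM, with at most 0.05 CPM in the other 18. Their 8 adipocyte markers summed to 81.9, 55.1 and 70.8 CPM, and those of the other 18 libraries to between 15.0 and 30.3 CPM. Skeletal muscle markers summed to 1928 CPM in KO chow 7 and to at most 2.01 CPM elsewhere. Dmbt1, a gallbladder mucosa marker, stood at 95.6, 54.6 and 41.7 CPM in the 3 libraries. It was 27.6 CPM in WT chow 5 and at most 0.596 CPM elsewhere. All 8 gallbladder mucosa markers summed to 1033 to 1813 CPM on chow, a range that held these libraries as well. The results that lead below were also computed without the 3 libraries, a fit that keeps WT chow 5.

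Compared between genes per kilobase of exon, Hsd17b13 had the highest level of the 10 in each group. In WT livers on chow it stood at 264 ± 44.6 CPM per kb, and the other members followed in the order Pnpla2 (66.3 ± 28.9 CPM per kb), Gckr (43.4 ± 7.83), Ppp1r3b (31.9 ± 10.3), Tm6sf2 (25.8 ± 3.64), Pnpla7 (17.2 ± 4.03), Pnpla8 (12.9 ± 1.83), Lyplal1 (7.37 ± 1.23), Pnpla6 (3.37 ± 0.604) and Pnpla3 (0.186 ± 0.143). Neighbours from Pnpla2 to Tm6sf2 overlapped between libraries, as did Pnpla7 and Pnpla8, whereas each other neighbouring pair was apart in all 6 libraries. On HFMCD the order changed in its middle: Lyplal1, at 14.2 ± 1.53 CPM per kb in WT, overlapped Ppp1r3b at 15.0 ± 2.67 and Pnpla7 at 13.3 ± 1.56, and Pnpla6 fell to 1.24 ± 0.110 CPM per kb. Pnpla3 had the lowest level in all 4 groups.

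**Figure D1:**
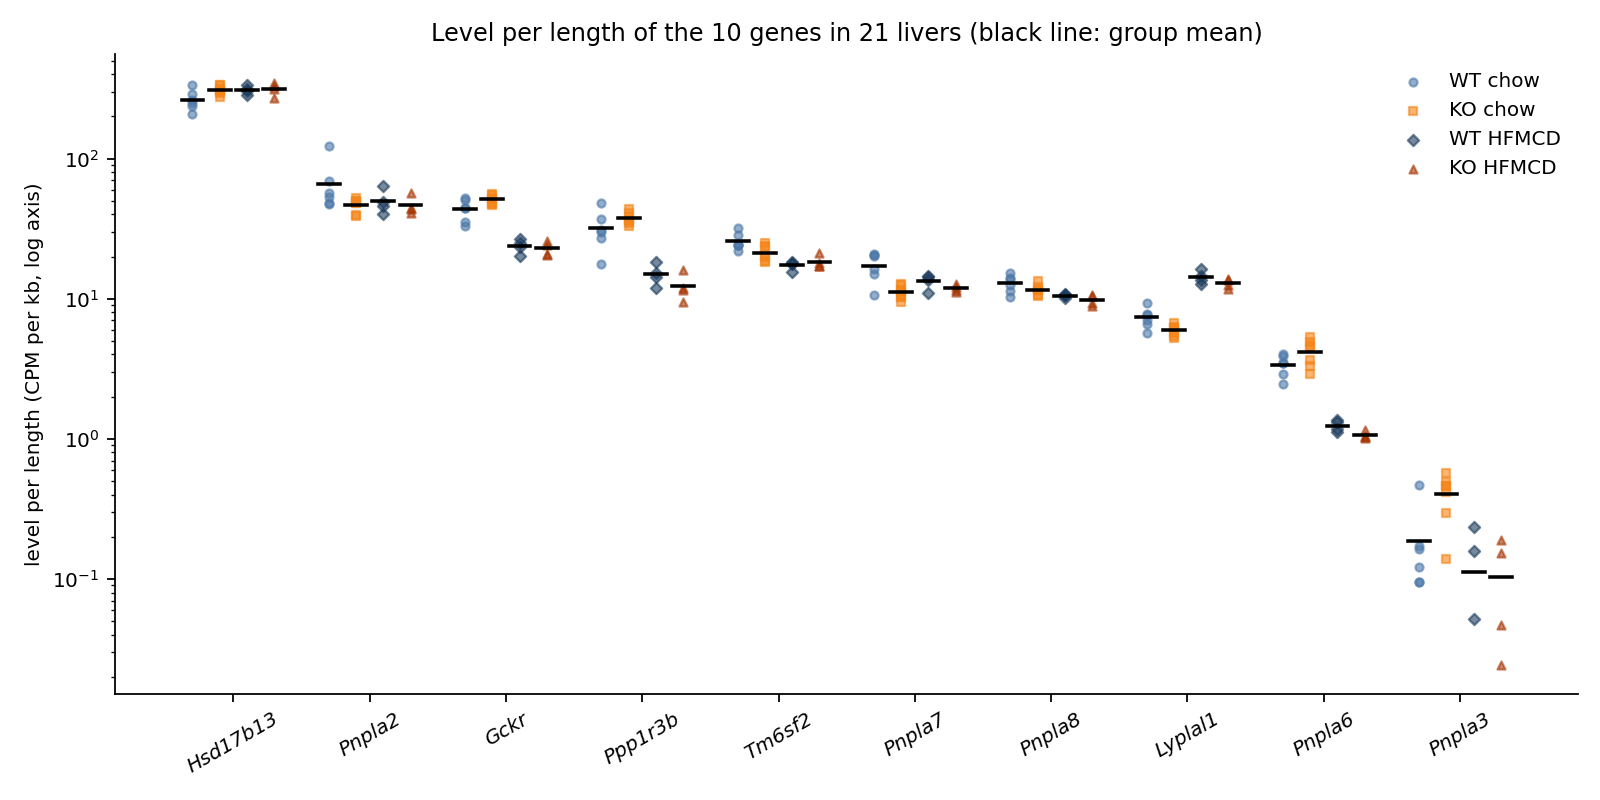
Levels of the 10 genes in CPM per kilobase of exon (log axis) in every library, by group, with group means. Hsd17b13 is highest and Pnpla3 lowest in each group; the WT HFMCD library with no Pnpla3 read cannot be drawn on a log axis and is left out.

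Differences between groups were tested with edgeR's quasi-likelihood F test on the counts of all 15677 genes, with Benjamini-Hochberg adjustment over all of them and a call at an adjusted p under 0.05. Folds are log2 values with their standard error (SE). Between genotypes on chow, 1 of the 10 genes was called, Pnpla7, which was lower in KO; of all genes tested 2.17% were called, 1.61% lower and 0.561% higher. On HFMCD none of the 10 was called between genotypes, by edgeR or by DESeq2 or limma-voom, where edgeR called 0.319% of all genes (0.223% higher and 0.0957% lower), and none of the 10 had an unadjusted p under 0.05. The libraries of the genotypes overlapped for each of the 10 on both diets; among all genes, 0.657% had no overlap on chow and 8.62% on HFMCD. Between diets, 7 of the 10 were called in WT (1 higher and 6 lower on HFMCD) and 6 in KO (1 higher and 5 lower). The 5 include Pnpla3, which passed the filter on low counts through its KO chow libraries. These counts stand beside 62.5% of all genes called in WT (29.0% higher and 33.6% lower) and 69.7% in KO (33.7% higher and 36.0% lower), so the number called was near the background of a diet comparison in which most genes moved. Comparisons of genotype on chow and of diet in WT share the 6 WT chow libraries, and those of genotype on chow and of diet in KO share the 7 KO chow libraries.

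**Figure D2:**
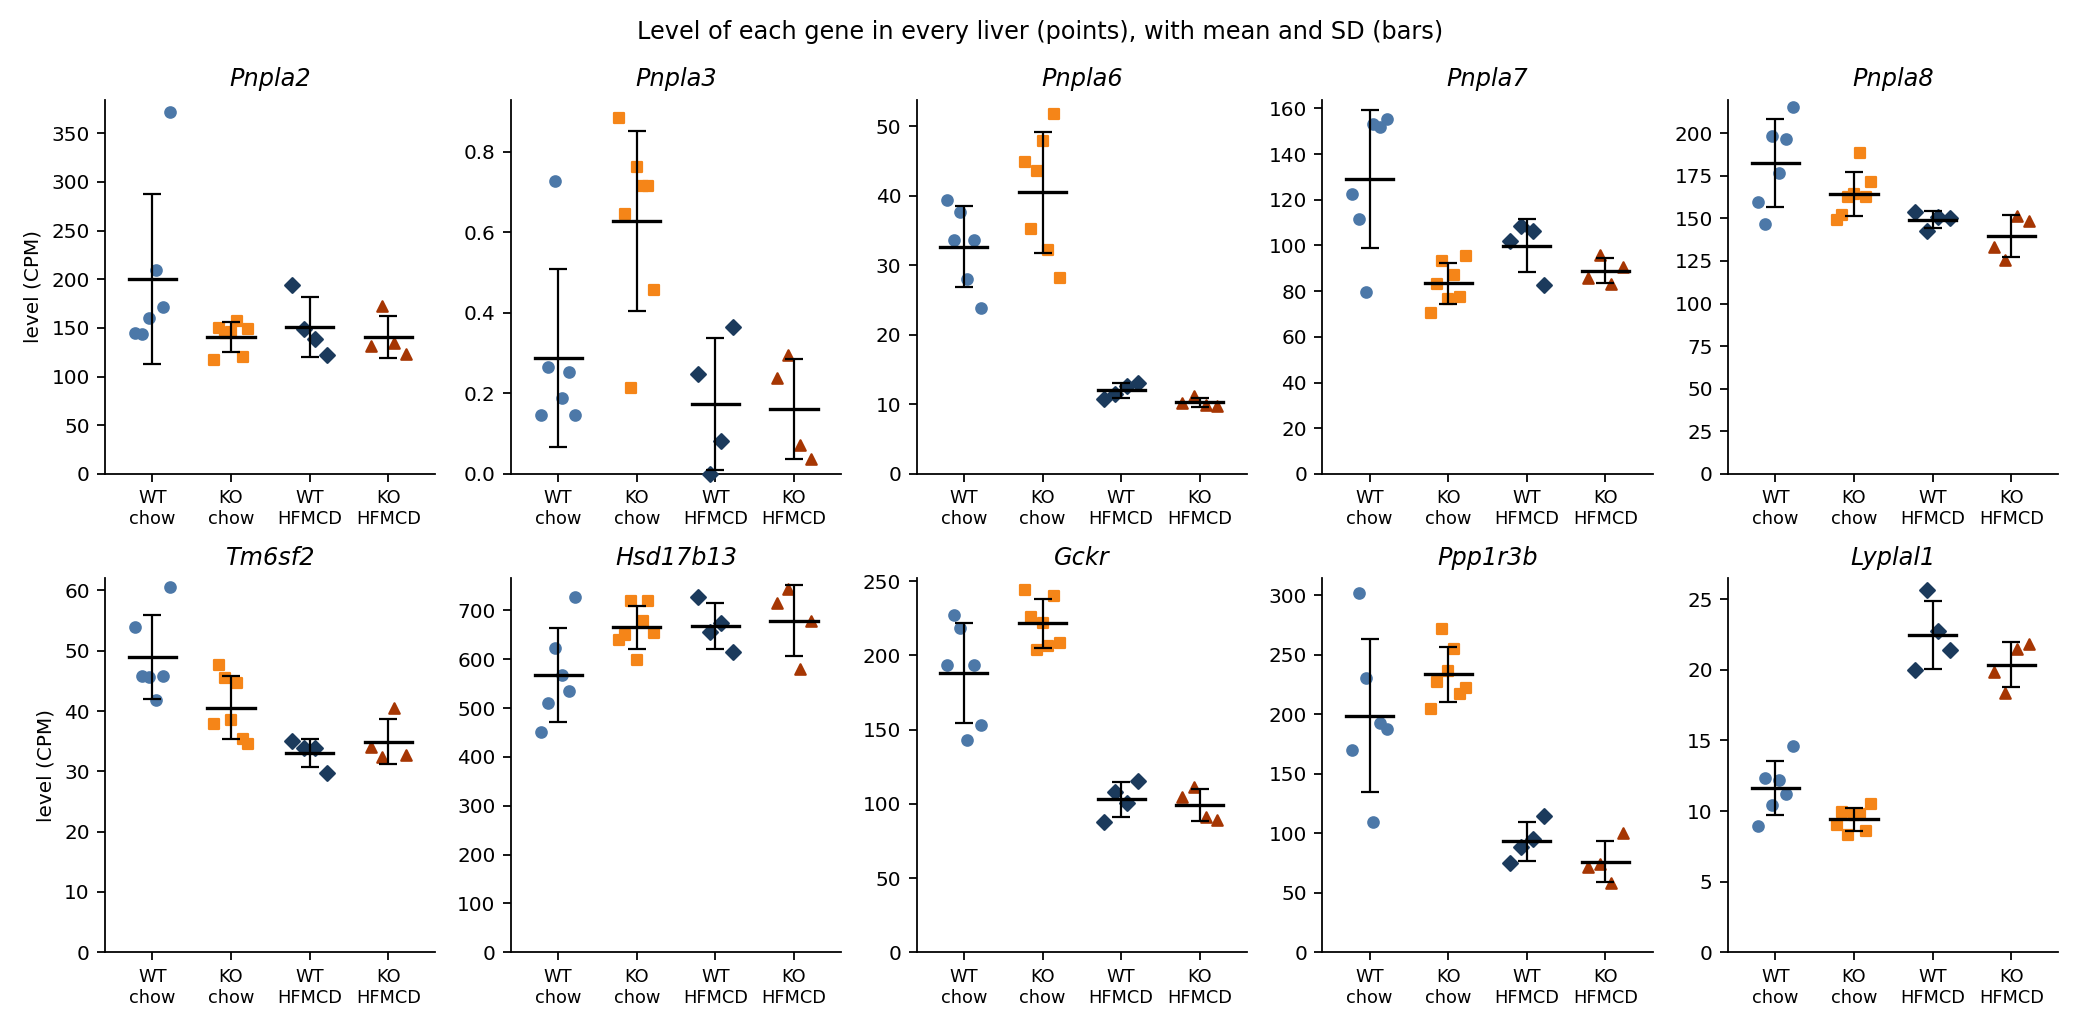
Level of each of the 10 genes in CPM in each of the 21 libraries, by group (WT and KO on chow and on HFMCD), with mean ± SD of each group. Pnpla7 is lower in KO than in WT on chow, Pnpla6, Gckr and Ppp1r3b are lower on HFMCD, and Lyplal1 is higher on HFMCD.

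Pnpla7, a lysophosphatidylcholine hydrolase of the endoplasmic reticulum and of lipid droplets, was the member that changed with the genotype. On chow it ranged from 79.8 CPM to 156 CPM in the 6 WT livers, with a median of 137 CPM, and from 70.6 CPM to 95.4 CPM in the 7 KO livers, with a median of 83.3 CPM. The groups overlapped through WT chow 3, the lowest WT library at 79.8 CPM, while the other 5 WT livers stood at 112 CPM or above and all KO livers stood below them. The log2 fold of KO against WT was -0.63 (SE 0.12, 95% interval -0.86 to -0.40, edgeR adjusted p = 0.0137). It was -0.74 without the 3 libraries with Adipoq, WT chow 3 among them (edgeR adjusted p = 6.64e-04). A fit of the chow libraries alone gave -0.62 but did not pass, at an edgeR adjusted p of 0.0742; that fit called 2 of all genes in place of 340.

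On HFMCD, Pnpla7 stood at 101.8, 108.4, 106.5 and 82.8 CPM in WT and at 85.9, 95.9, 83.2 and 90.5 CPM in KO. These values overlapped, with a log2 fold of -0.17 (SE 0.15, 95% interval -0.46 to 0.13, edgeR adjusted p = 0.787). The difference between the genotype effects on the 2 diets was 0.46 (SE 0.19), with an unadjusted p of 0.0243 and an edgeR adjusted p of 0.404, so a dependence of the Pnpla7 effect on diet was not shown. In WT livers Pnpla7 was lower on HFMCD than on chow, by a log2 fold of -0.37 (SE 0.14, edgeR adjusted p = 0.0239), and the 2 diets overlapped. That call was lost with upper-quartile scaling (log2 fold -0.30, edgeR adjusted p = 0.0585) and without WT chow 4 (-0.26, edgeR adjusted p = 0.0972). In KO livers the diet fold was 0.09 (edgeR adjusted p = 0.55).

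Pnpla6, also called neuropathy target esterase, deacylates phosphatidylcholine and lysophosphatidylcholine at the endoplasmic reticulum and is the closest relative of Pnpla7 in the family. It ranged from 23.9 to 39.4 CPM in WT and from 28.1 to 51.7 CPM in KO on chow. On HFMCD it was 10.8, 11.4, 12.7 and 13.1 CPM in WT and 10.2, 11.2, 9.96 and 9.82 CPM in KO. Every HFMCD liver was thus below every chow liver. The log2 diet fold of Pnpla6 was -1.44 in WT livers (SE 0.16, 0.368 of the chow level, edgeR adjusted p = 4.12e-08). In KO livers it was -1.97 (SE 0.16, 0.255 of the chow level, edgeR adjusted p = 1.85e-10). Between genotypes the log2 fold was 0.31 on chow (SE 0.13, edgeR adjusted p = 0.191) and -0.22 on HFMCD (SE 0.17, edgeR adjusted p = 0.729). The difference of these 2 folds, -0.53 (SE 0.21), had an unadjusted p of 0.0186 and an edgeR adjusted p of 0.387.

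Pnpla2, the triglyceride lipase, ranged from 143 to 372 CPM in WT on chow, with a median of 166 CPM, and from 117 to 157 CPM in KO, with a median of 146 CPM. The highest value came from WT chow 6, and the next WT library stood at 209.5 CPM. The log2 fold of KO against WT on chow was -0.51 (SE 0.18, edgeR adjusted p = 0.145), and -0.23 without WT chow 6 (edgeR adjusted p = 0.357). On HFMCD Pnpla2 was 194, 149, 139 and 122 CPM in WT and 131, 173, 135 and 123 CPM in KO, with a log2 fold of -0.10 (SE 0.23, edgeR adjusted p = 0.946). The diet folds were -0.41 in WT (SE 0.21, edgeR adjusted p = 0.103; -0.09 without WT chow 6, edgeR adjusted p = 0.547) and near 0 in KO (SE 0.21). Pnpla2 therefore passed in none of the 4 comparisons.

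WT chow 6 was also the highest WT chow liver for Pnpla7 (156 CPM), Pnpla8 (215), Tm6sf2 (60.5), Hsd17b13 (726) and Lyplal1 (14.6). For Pnpla6 (23.9 CPM) it was the lowest. It stood at the top of another readout too. Its summed level over 18 genes of fasting and of the nuclear receptor PPARα was 45694 CPM, the highest of the 21 libraries. Cyp4a14, 1 of the 18, alone gave 14857 CPM of this unweighted sum. The fasting sum ran from 30722 to 45694 CPM in WT on chow, from 23047 to 31289 CPM in KO on chow, from 10192 to 20351 CPM in WT on HFMCD and from 9521 to 11027 CPM in KO on HFMCD. None of the 18 genes rose in KO on chow, and Cpt1a, the carnitine transferase of mitochondrial fatty acid uptake (log2 fold -0.58, edgeR adjusted p = 0.0188; 0.0586 without WT chow 5), was among those that fell; the median fold of the list was -0.34, beside 0.01 over all genes. The part of what these genes track in the Pnpla2 and Pnpla7 values was not tested.

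**Figure D3:**
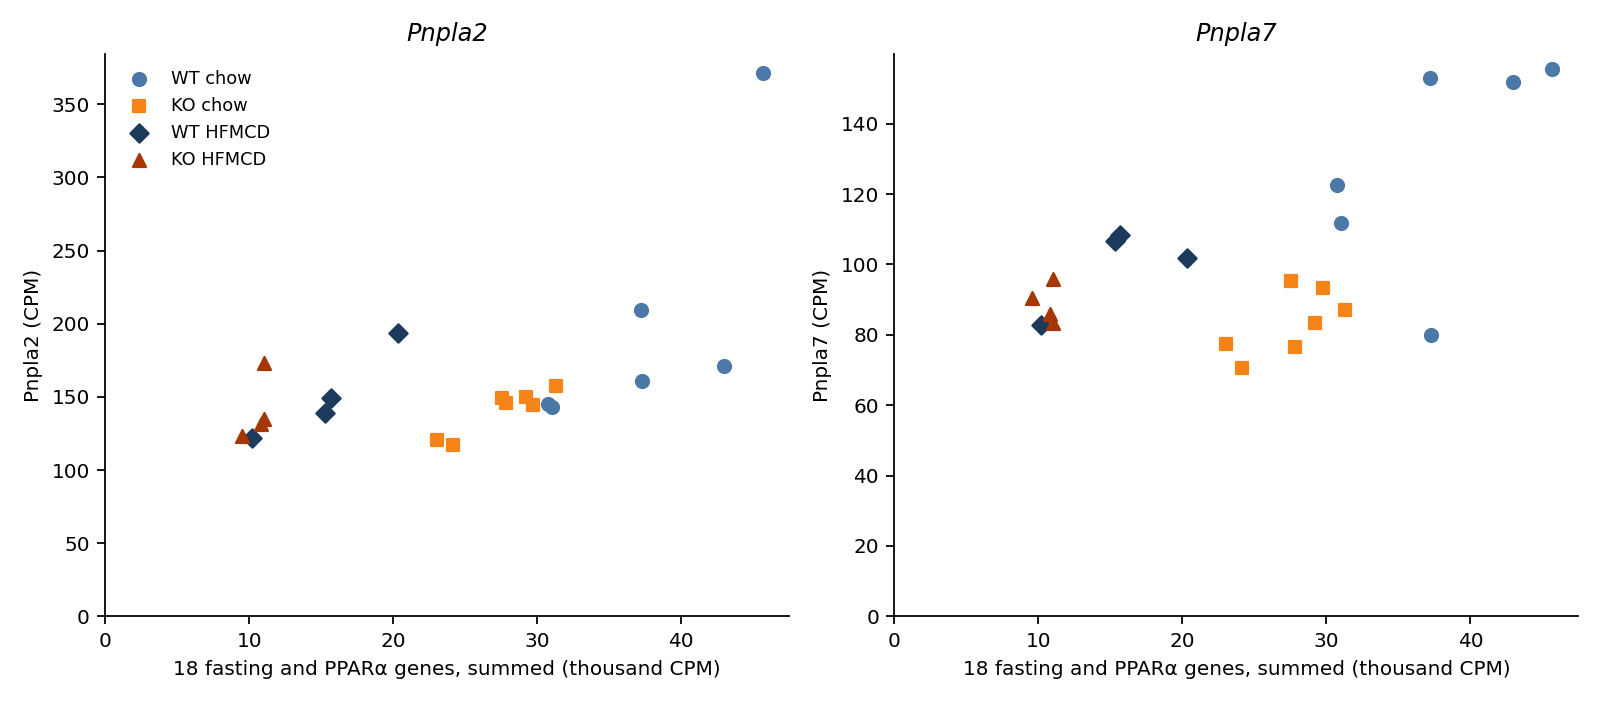
Pnpla2 and Pnpla7 in CPM (vertical axes) against the summed CPM of 18 fasting and PPARα genes (horizontal axis, scaled as its label says), 1 point per library, by group. WT chow 6 has the highest sum and the highest Pnpla2, and the HFMCD libraries of both genotypes have sums of 20351 CPM or less.

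Of the other genes of triglyceride hydrolysis and its regulators, 20 were tested. Abhd5, the activator of ATGL, had a log2 fold of 0.09 in KO on chow (edgeR adjusted p = 0.509), and G0s2, its inhibitor, -0.60 (edgeR adjusted p = 0.572). Between genotypes 1 of the 20 was called on chow, beside 2.17% of all genes, and none on HFMCD, beside 0.319%. The 1 was Ubxn8, an endoplasmic reticulum protein that recruits the ATPase p97, lower in KO on chow (-0.32, edgeR adjusted p = 0.0237). Its adjusted p rose to up to 0.0745 with a library left out, where the call was lost. On HFMCD against chow 5 rose and 10 fell in WT, and 4 rose and 10 fell in KO, with median log2 folds of -0.30 and -0.51, beside -0.05 and -0.02 over all genes. Calls over all genes were 62.5% in WT and 69.7% in KO. Mgll, the monoglyceride lipase, fell, with log2 folds of -1.22 in WT and -1.68 in KO, as did the carboxylesterase Ces1f, with -1.48 and -1.74. G0s2 also fell, to log2 folds of -2.05 in WT and -1.87 in KO (edgeR adjusted p = 0.00866 and 0.0116), while Abhd5 rose by 0.46 and 0.40. The carboxylesterases are a multigene family, and how reads shared between its members were counted is not given in the sources used here.

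Pnpla3, the lipid droplet protein adiponutrin, was close to the limit of detection. It had 3 to 13 reads per library in WT on chow, 4 to 21 in KO on chow, 6, 0, 2 and 9 in WT on HFMCD and 6, 8, 2 and 1 in KO on HFMCD. A count of 0 allows up to 3 reads, by counting error alone. In CPM the WT chow livers ranged from 0.146 to 0.727, with a median of 0.221, and the KO chow livers from 0.214 to 0.885, with a median of 0.714. The log2 fold in KO on chow was 1.14 (SE 0.50, edgeR adjusted p = 0.222), and 1.63 without WT chow 3, the highest WT library (edgeR adjusted p = 0.0734). Between diets Pnpla3 was lower on HFMCD in KO, at 0.238, 0.294, 0.0724 and 0.0378 CPM, by a log2 fold of -1.94 (SE 0.59, edgeR adjusted p = 0.00569), with overlap between the diets. Apart from WT chow 3, only KO chow libraries held 10 or more Pnpla3 reads. Pnpla3 thus passed the filter on low counts through the group where it was highest. The call in KO rests on that same group, so it is not taken as support for a diet effect on Pnpla3. In WT the diet fold was -0.70 (SE 0.65, edgeR adjusted p = 0.357), and on HFMCD the genotype fold was -0.10 (SE 0.73), an error too wide to give a direction.

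In mice Pnpla3 is known as a gene raised by feeding through SREBP1c and ChREBP, the transcription factors encoded by Srebf1 and Mlxipl. On chow Mlxipl had a log2 fold of 0.49 in KO (edgeR adjusted p = 0.066) and Srebf1 of 0.42 (edgeR adjusted p = 0.168). None of 18 lipogenic genes was called there, beside 2.17% of all genes. On HFMCD against chow Mlxipl fell, with log2 folds of -2.26 in WT and -2.82 in KO, whereas Srebf1 rose by 1.22 and 1.48. Over the 18 genes, 4 rose and 7 fell in WT (62.5% of all genes called), and 3 rose and 10 fell in KO (69.7%). Me1, the malic enzyme, was among those that fell (-2.70 and -2.53). Between genotypes on HFMCD 1 of the 18 was called, beside 0.319% of all genes. It was Scd1, the stearoyl-CoA desaturase, which was higher in KO (log2 fold 2.70, edgeR adjusted p = 0.0101). The call was lost without WT HFMCD 1 (edgeR adjusted p = 0.0749) or WT HFMCD 2 (edgeR adjusted p = 0.0739).

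Pnpla8, a calcium-independent phospholipase A2 of mitochondria and peroxisomes, varied little. It ranged from 147 to 215 CPM in WT and from 149 to 189 CPM in KO on chow, and stood at 154, 143, 151 and 150.0 CPM in WT and 133, 125, 151 and 148 CPM in KO on HFMCD. Between genotypes the log2 folds were -0.15 on chow (SE 0.08, edgeR adjusted p = 0.338) and -0.10 on HFMCD (SE 0.10, edgeR adjusted p = 0.8287). It was lower on HFMCD, with a log2 fold of -0.29 in WT (SE 0.09, edgeR adjusted p = 0.0110) and of -0.24 in KO livers (SE 0.09, edgeR adjusted p = 0.0262), and the libraries overlapped. The WT call was lost without WT chow 6 (edgeR adjusted p = 0.0713), and the KO call with upper-quartile scaling (log2 fold -0.16, edgeR adjusted p = 0.106).

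Among 19 other phospholipases and lysophospholipases tested, of 22 listed, none was called between genotypes on either diet. Over all genes 2.17% were called between genotypes on chow and 0.319% on HFMCD. On HFMCD 8 rose and 4 fell in each genotype, beside 62.5% of all genes called in WT and 69.7% in KO. Those that rose included Pla2g4a, the cytosolic phospholipase A2 that releases arachidonate (log2 fold 2.30 in WT and 2.43 in KO), Pla2g7, the plasma platelet-activating factor hydrolase known from macrophages (2.02 and 2.54), and Pla2g15, the lysosomal phospholipase A2 (1.29 and 1.24). Pnpla6 and Pnpla8, with the folds given above, went the other way. All 10 called of the 12 macrophage markers rose as well, from sums of 233 to 664 CPM on chow to sums of 1488 to 1926 CPM on HFMCD. In the same comparisons 29.0% of all genes were called higher in WT and 33.7% in KO.

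Tm6sf2, a membrane protein of the endoplasmic reticulum needed to load VLDL with lipid, ranged from 41.9 to 60.5 CPM in WT and from 34.6 to 47.6 CPM in KO on chow. On HFMCD it was 35.0, 33.9, 33.8 and 29.7 CPM in WT and 34.1, 32.4, 40.4 and 32.8 CPM in KO. Each WT liver on HFMCD was below each WT liver on chow, by a log2 fold of -0.57 (SE 0.11, edgeR adjusted p = 9.52e-05). In KO the diets overlapped, with a fold of -0.22 (SE 0.10, edgeR adjusted p = 0.0695). The genotype fold was -0.27 on chow (SE 0.09, edgeR adjusted p = 0.122) and 0.08 on HFMCD (SE 0.12, edgeR adjusted p = 0.901). Their difference of 0.35 (SE 0.15) had an unadjusted p of 0.0283 and an edgeR adjusted p of 0.426.

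Of 17 other genes of VLDL assembly and export, 1 was called between genotypes on chow, beside 2.17% of all genes. It was Apoa4, an apolipoprotein of triglyceride-rich particles, lower in KO with a log2 fold of -2.12 (edgeR adjusted p = 0.0142, and up to 0.0449 with a library left out). Exons of Apoa4, 1815 bases in all, overlap Gm47528 and Gm10680 on the other strand by up to 1266 bases. Reads there could count for the genes of either strand. With the diet 5 of the 17 rose and 6 fell in WT, and 7 rose and 5 fell in KO. Calls over all genes were 62.5% in WT and 69.7% in KO. Mttp, which loads lipid onto apolipoprotein B, fell, with log2 folds of -0.95 in WT and -1.07 in KO. Mia3, a protein for export of large cargo from the endoplasmic reticulum, fell likewise (-1.16 and -1.09). The paralogue Tm6sf1 rose by 1.98 and 1.86, opposite in sign to Tm6sf2.

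Hsd17b13, a retinol dehydrogenase on hepatocyte lipid droplets, ranged from 451 to 726 CPM in WT on chow, with a median of 551 CPM, and from 598 to 719 CPM in KO, with a median of 654 CPM. On HFMCD it was 728, 655, 673 and 614 CPM in WT and 715, 745, 579 and 677 CPM in KO. The 4 groups overlapped, and none of the 4 comparisons passed. Its log2 folds were 0.23 for KO on chow (SE 0.09, edgeR adjusted p = 0.184), 0.02 for KO on HFMCD (SE 0.12, edgeR adjusted p = 0.977), 0.23 for the diet in WT (SE 0.11, edgeR adjusted p = 0.0588) and 0.03 for the diet in KO (SE 0.10, edgeR adjusted p = 0.808). The diet fold in WT was called with upper-quartile scaling (0.31, edgeR adjusted p = 0.00925) and with DESeq2 (0.27, adjusted p = 0.0248).

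Of 16 other dehydrogenases and droplet-related proteins tested, 3 fell in KO on chow and none rose (1.61% and 0.561% of all genes). They were Hsd17b4, a peroxisomal β-oxidation enzyme (log2 fold -0.39, edgeR adjusted p = 0.0281), Cidec, a droplet fusion protein (-2.30, edgeR adjusted p = 0.0347), and Cideb, a droplet protein of VLDL lipidation (-0.26, edgeR adjusted p = 0.0455). Without the 3 libraries with Adipoq none of these 3 passed, at edgeR adjusted p-values of 0.0609, 0.0521 and 0.0758. Exons of Cideb share 1136 of 1488 bases with Nop9 on the other strand, so reads there could count for either gene. None of the 16 was called between genotypes on HFMCD, beside 0.319% of all genes. With the diet 3 rose and 9 fell in WT (62.5% of all genes called), and 4 rose and 7 fell in KO (69.7%). Hsd17b11, the closest relative of Hsd17b13, fell, with log2 folds of -0.62 in WT and -0.84 in KO, as did the retinol dehydrogenase Dhrs4 (-0.86 and -0.85), whereas the coat protein Plin3 rose by 0.82 and 1.04. The hepatocyte markers fell too, with 9 of 12 lower in WT and 10 of 12 lower in KO on HFMCD, at median log2 folds of -0.58 and -0.74. Beside them, 33.6% of all genes were called lower in WT and 36.0% in KO. In whole liver fewer cells of a type and less RNA per cell cannot be told apart.

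Gckr encodes a liver regulatory protein of glucose use. It ranged from 143 to 228 CPM in WT and from 204 to 244 CPM in KO on chow, and was 87.5, 108.2, 101 and 115 CPM in WT and 104.8, 111, 91.1 and 89.4 CPM in KO on HFMCD. Each liver on HFMCD stood below each on chow. Gckr fell with the diet, by a log2 fold of -0.87 in WT (SE 0.12, 0.547 of the chow level, edgeR adjusted p = 8.6e-07) and of -1.16 in KO livers (SE 0.12, 0.447 of the chow level, edgeR adjusted p = 5.55e-09). Between genotypes the folds were 0.24 on chow (SE 0.10, edgeR adjusted p = 0.201) and -0.06 on HFMCD (SE 0.12, edgeR adjusted p = 0.943).

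Ppp1r3b, which brings protein phosphatase 1 to glycogen and so favours glycogen synthesis, ranged from 109 to 302 CPM in WT and from 204 to 272 CPM in KO on chow. On HFMCD it was 74.6, 88.4, 95.4 and 114 CPM in WT and 71.9, 74.1, 58.5 and 99.8 CPM in KO. The KO livers were apart between the diets, and the WT livers overlapped, the lowest on chow at 109 CPM and the highest on HFMCD at 114 CPM. Ppp1r3b fell with the diet, by a log2 fold of -1.09 in WT (SE 0.20, edgeR adjusted p = 8.29e-05) and of -1.62 in KO livers (SE 0.20, 0.326 of the chow level, edgeR adjusted p = 4.74e-07). Between genotypes the folds were 0.23 on chow (SE 0.17, edgeR adjusted p = 0.498) and -0.29 on HFMCD (SE 0.21, edgeR adjusted p = 0.705).

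Of 18 genes of glycogen and glucose use, 1 fell in KO on chow, beside 1.61% of all genes. It was Gys2, the liver glycogen synthase (log2 fold -0.50, edgeR adjusted p = 0.0345), a call lost without WT chow 6 (-0.40, edgeR adjusted p = 0.0990). With the diet 8 rose and 5 fell in WT (62.5% of all genes called), and 7 rose and 4 fell in KO (69.7%). Gyg, the glycogenin that primes glycogen, rose by 1.82 in WT and 1.999 in KO. Ppp1r3d, another glycogen-targeting subunit of protein phosphatase 1, rose by 1.49 and 2.13, opposite in sign to Ppp1r3b.

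Lyplal1, a serine hydrolase of the lysophospholipase-like family, was the 1 member that rose with the diet. It ranged from 8.93 to 14.6 CPM in WT and from 8.34 to 10.5 CPM in KO on chow, and was 19.98, 25.6, 22.8 and 21.4 CPM in WT and 19.8, 18.4, 21.5 and 21.8 CPM in KO on HFMCD. Every liver on HFMCD was above every liver on chow. The log2 fold was 0.95 in WT (SE 0.11, 1.93-fold, edgeR adjusted p = 1.05e-07) and 1.11 in KO (SE 0.11, 2.16-fold, edgeR adjusted p = 3.09e-09). Between genotypes the folds were -0.30 on chow (SE 0.10, edgeR adjusted p = 0.108) and -0.14 on HFMCD (SE 0.12, edgeR adjusted p = 0.773). Without WT chow 1 the chow fold was -0.37 and was called (edgeR adjusted p = 0.0387).

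Between diets, 4 of the 10 genes had no overlap and were called in WT (Pnpla6, Tm6sf2, Gckr and Lyplal1) and 4 in KO (Pnpla6, Gckr, Ppp1r3b and Lyplal1), beside 47.2% and 53.0% of all genes. The median size of the log2 diet fold was 0.63 over the 10 genes and 0.54 over all genes in WT, and 0.67 and 0.62 in KO. Between genotypes on chow it was 0.29 over the 10 and 0.15 over all genes, and 8 of the 10 had an unadjusted p under 0.05, beside 17.9% of all genes. On HFMCD it was 0.10 and 0.14. For the difference between the genotype effects no gene was called by edgeR, of the 10 or of all, while 3 of the 10 and 10.1% of all genes had an unadjusted p under 0.05; DESeq2 called 100 and limma-voom 12 of all genes and none of the 10. Markers of other cell types rose with the diet beside these folds, where 29.0% of all genes were called higher in WT and 33.7% in KO. On HFMCD against chow 10 of 12 stellate cell and fibroblast markers were higher in each genotype, with sums of 221 to 537 CPM on chow and 1154 to 1681 CPM on HFMCD. Of the cholangiocyte markers 5 rose in WT and 10 in KO, and their sums were 50.9 to 148 CPM on chow, 226 to 271 CPM in WT on HFMCD and 612 to 875 CPM in KO on HFMCD. Between genotypes on HFMCD 6 of 11 cholangiocyte markers tested were called higher in KO, beside 0.223% of all genes. The part of these cells in the diet folds of the 10 genes, and in their genotype folds on HFMCD, was not tested.

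**Figure D4:**
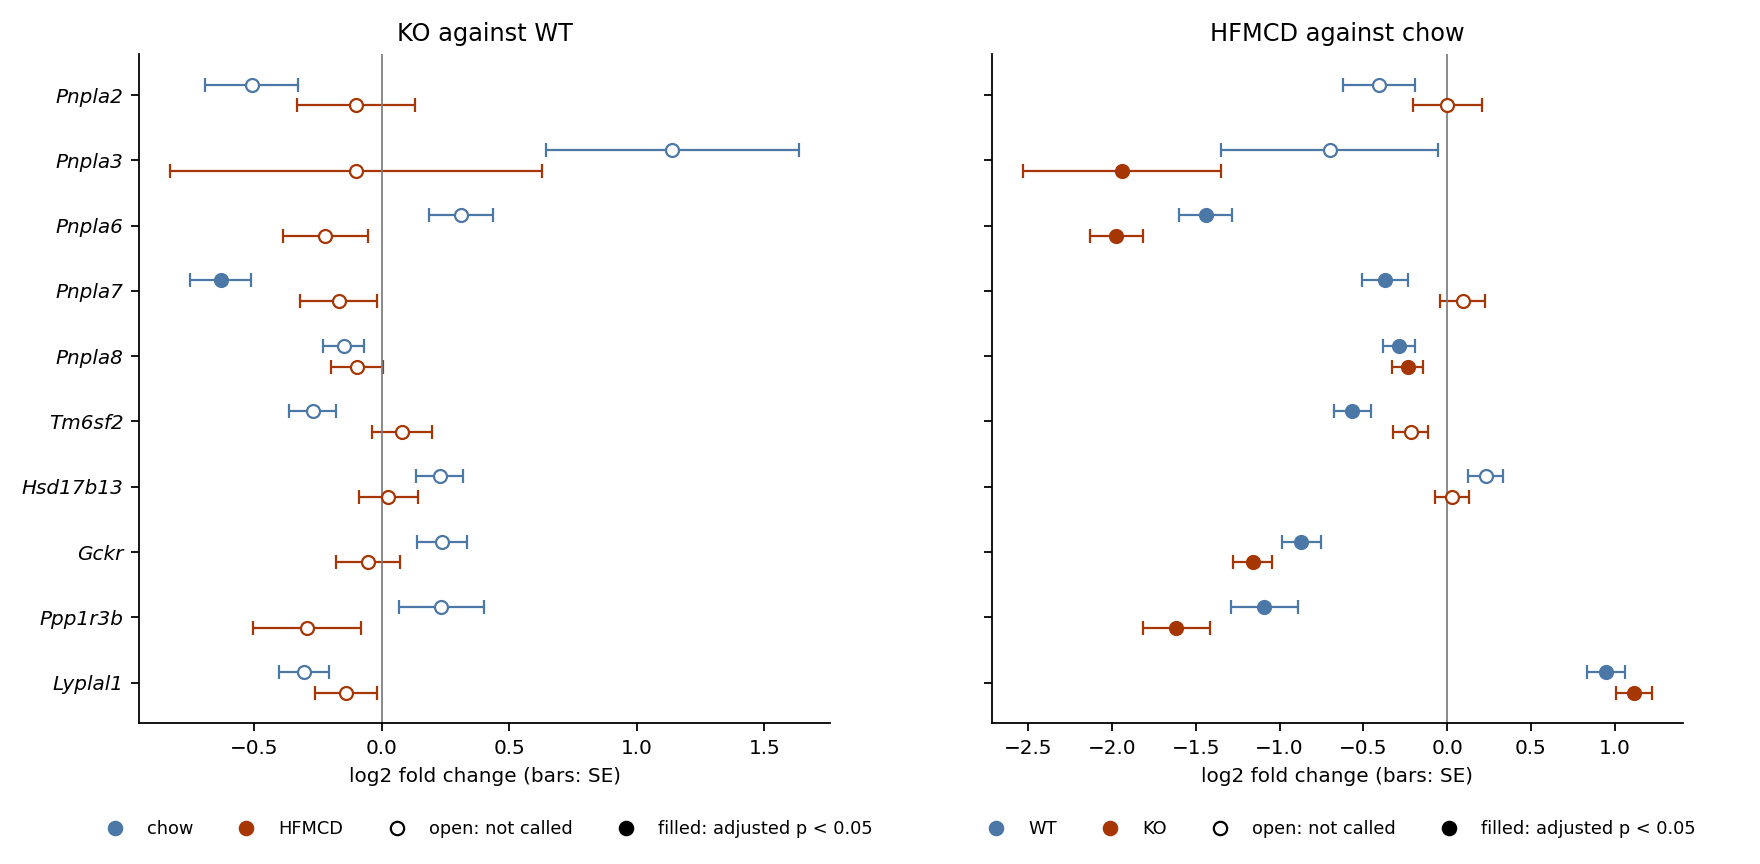
Log2 fold changes of the 10 genes, with bars of 1 SE, for KO against WT on each diet and for HFMCD against chow in each genotype; filled points passed an adjusted p of 0.05. Between genotypes Pnpla7 on chow passed, and between diets Lyplal1 lies above 0 and Pnpla6, Gckr and Ppp1r3b below 0 in both genotypes.

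Other mouse orthologues of human fatty-liver risk genes, 26 in the list, had 6 that rose and 13 that fell on HFMCD in WT, and 4 that rose and 14 that fell in KO. The number called was near the 62.5% and 69.7% of all genes, and the median log2 folds were -0.23 and -0.38, beside -0.05 and -0.02 over all genes. The list counts Serpina1a, Serpina1b, Serpina1c, Serpina1d and Serpina1e as separate genes. They are 1 family, and how reads shared between its members were counted is not given. Whether the list differs from other genes was not tested. Ucp2, a mitochondrial carrier, rose by 1.92 in WT and 2.13 in KO. Marc1, a mitochondrial amidoxime reductase, fell, with log2 folds of -0.86 and -0.88. None of the 26 was called between genotypes on HFMCD (0.319% of all genes called), and 1 fell in KO on chow (1.61% of all genes). It was Cideb, which is also among the droplet-related proteins above, where its overlap with Nop9 is given.

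For the 5 members whose group means spanned at least 1 on the log2 scale, the genes of most similar pattern were sought by the root mean square difference of centred log2 CPM over the 21 libraries, where 0 is an identical pattern. Closest to Pnpla6 were Dgkq (0.155), Lrrc45 and Als2cl. Closest to Gckr were Rbfox2 and Dvl3, each at 0.14, and Dus3l, and closest to Ppp1r3b were Dido1 (0.24), Sall1 and Srsf4. Closest to Lyplal1 were Prdx3 (0.13), Abcg2 and Wdr1. The nearest genes to Pnpla3, Myrip (0.54), Col27a1 and Msh5, were further away, and its libraries held 0 to 21 reads.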

How the data were processed

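Whole-liver RNA of 21 mice was sequenced, 1 library per mouse. The authors deposited raw counts of reads per gene for each library. PBS-perfused livers went into RNAlater, RNA was extracted by RNeasy columns and libraries followed standard Illumina protocols, per the labels' protocols. The submitters' processing notes name CASAVA 2.17, STAR 2.6.1d, featureCounts 1.6.1 and GRCm38; the annotation, strand setting and read filters are not given in the sources used here, so reads of overlapping genes cannot be assigned by strand. Symbols were matched to GENCODE M21 for positions and exon length.

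Counts were tested in edgeR 4.0.16 (R 4.3.3) after filterByExpr by group and TMM scaling: a robust quasi-likelihood fit of 4 group means, two-sided F tests of 5 contrasts and Benjamini-Hochberg adjustment over 15677 genes. The SE of a log2 fold is its size divided by the square root of F, and intervals are 1.96 SE wide on each side. The intervals rest on the spread between mice as well as on the read counts. The limit of 3 reads behind a count of 0 reflects counting error alone, at 17502231 to 25822972 counts per library. Log2 CPM used a prior count of 2. The fit was also run on counts simulated from its own model, with few genes changed. That run cannot speak for the diet comparisons, in which most genes moved. Groups are from the labels' genotype and diet fields; replicates are numbered in accession order. All 10 members are named, and from each list at most 4 called genes with the smallest p; other list genes are named as values. The genes G0s2, Abhd5, Mlxipl, Srebf1 and Mttp, and WT chow 6, were singled out after their values were seen. The members and lists were chosen with earlier results of these data known. The 30 alternatives included DESeq2 1.42.0, limma-voom 3.58.1 and leaving out each library; the one without the 3 libraries with Adipoq above 1 CPM was added after seeing the data. Some genes of the lists are not reported here.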

Additional observations from a re-analysis of the deposited data

Results flagged for a closer look

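Among the 40 combinations of a member and a group, 2 held a library whose gap to its nearest neighbour was larger than Dixon's 95% limit allows; chance flags about 1 in 20 such groups. Pnpla2 stood at 372 CPM in WT chow 6, where the other 5 WT chow livers ran from 143 to 209.5 CPM. Pnpla3 stood at 0.727 CPM in WT chow 3, which is also a library with Adipoq, at 3.97 CPM. The folds without each of these libraries are given with the 2 genes in the report.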

How the results depend on the processing

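No paired analysis was possible because the labels give no shared replicate numbers between the groups. Over 50 results of the 10 members and 1483 comparisons under 30 alternatives, 1407 kept direction and side of the threshold, 24 gained a call, 18 lost one and 34 changed sign. None of the 14 called results changed sign, and 10 stayed called under every alternative that tested them; the others were Pnpla7 in KO on chow, Pnpla7 in WT with diet, and Pnpla8 with diet in both genotypes. The cause was not tested. With a minimum of 1 CPM in 4 libraries Pnpla3 was not tested. Members called in KO on chow numbered 0 with only the chow groups fitted (Pnpla7 then at an edgeR adjusted p of 0.0742) and 1 to 2 with each library left out, the second being Lyplal1 without WT chow 1; for the diet they numbered 6 to 8 in WT and 5 to 7 in KO under all alternatives, and for KO on HFMCD and the difference of genotype effects 0 throughout. The Pnpla7 diet call in WT was lost under 8 alternatives (edgeR or limma-voom adjusted p up to 0.105), and the Pnpla8 diet call under 6 in KO (up to 0.122) and 3 in WT (up to 0.0713). Pnpla2 in WT with diet gained a call without WT HFMCD 1 (-0.55, edgeR adjusted p = 0.0492), and Pnpla3 with limma-voom (-1.74, adjusted p = 0.0442); Tm6sf2 in KO did so without KO chow 1 and 7 (-0.28, edgeR adjusted p = 0.0276). Among all genes, calls in KO on chow went from 340 to 715 with DESeq2 and 2 with only the chow groups, and in KO on HFMCD from 50 to 185 with DESeq2 and 296 with only the HFMCD groups.

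Signs changed only for folds near 0, all uncalled. The Pnpla2 diet fold in KO was 0.0233 with DESeq2, 0.0181 with RLE scaling, 0.0770 with upper-quartile scaling, 0.0515 with no filter, 0.0201 with only the groups compared and -0.11 to 0.0634 with each library left out. The Mboat7 diet fold in WT was -0.0167 with the 1 CPM minimum, -3.62e-05 without KO chow 1 and 7, and -0.0240 to 0.0682 with each library left out. For KO on HFMCD, Pnpla3 was 0.92 with limma-voom and -0.57 to 0.55 with each library left out, where Gckr ran from -0.13 to 0.00316, Hsd17b13 from -0.0230 to 0.0928, Pnpla2 from -0.22 to 0.0406 and Tm6sf2 from -0.00185 to 0.11. Likewise the Hsd17b13 diet fold in KO ran from -0.0118 to 0.10 and the Pnpla8 difference of genotype effects from -0.0218 to 0.10. Reads limit Pnpla3 most: its libraries held 0 to 21.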
